A study of Homo sapiens with 28 samples.

Results

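RNA expression of the kinase pair CAMKK2 and CAMKK1, of STK11, of 6 subunits of AMP-activated protein kinase (AMPK) and of SGK1 was examined in LNCaP, a human prostate cancer line that responds to androgen. These 10 genes were taken by symbol from a table of 61815 human genes, in which each had 1 row, and all 10 were tested. The 28 libraries came from 2 experiments on wild-type cells deprived of androgen for 72 h beforehand in charcoal-stripped serum, from which steroids have been removed. In the first, cells received vehicle (0.1% DMSO), Senexin B at 1 µM, the synthetic androgen R1881 at 0.1 nM or both agents for 24 h, with 3 libraries per group. In the second they received vehicle, SNX631 at 500 nM, R1881 at 1 nM or both for 72 h, with 4 libraries per group. The labels supplied these doses, and the study's own text states another for Senexin B. Senexin B and SNX631 inhibit CDK8 and CDK19 (CDK8/19), the kinases of the Mediator complex of transcription. Exposure time, R1881 dose, inhibitor and the experiment itself changed together between the experiments and cannot be told apart.

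AMPK senses the energy state of the cell. It is a trimer of a catalytic α subunit, a β scaffold that also binds glycogen and a γ subunit that binds AMP and ATP, and each is made from alternative genes. Its α subunit is switched on by LKB1, the product of STK11, or by CaMKK2, which responds to calcium and calmodulin, and CAMKK2 is well known as an androgen-induced gene in prostate cancer. SGK1 is a kinase of another branch, activated through mTORC2 and PDK1, whose transcription is known to respond to steroid hormones.

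Expected counts, in which a read can be shared among genes as fractions, summed to between 9846595 and 33809419 per library. Replicate 3 of vehicle at 24 h had the highest total, followed by a library with 15248512. Levels are given as CPM (library-scaled counts) on 1 scale for all 28 libraries (TMM, which centres libraries on the bulk of their genes). Fold changes come from edgeR's quasi-likelihood test within each experiment, with Benjamini-Hochberg adjustment over all genes tested (FDR). A gene passed the test at an FDR under 0.01, and it was called when its fold change was also over 1.5, or 0.585 on the log2 scale. The luminal genes KRT8, KRT18, HOXB13 and FOLH1 lay between 275 and 1511 CPM in every library, while KRT5, TP63, COL1A2, PTPRC and PECAM1 had at most 3 counts. The collagen gene COL1A1, a fibroblast marker, lay between 7.45 and 30.9 CPM, and its level varied with the groups. Its mean was 23.6 CPM with vehicle, 11.4 with Senexin B, 14.9 with R1881 and 8.23 with both at 24 h, and 29.6 with vehicle, 19.4 with SNX631, 21.2 with R1881 and 11.95 with both at 72 h, and its part in the results was not tested. The study's methods call its sequencing replicates biological, the labels do not say how they were grown, and p values measure the spread between these libraries.

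Per kilobase of annotated exon, PRKAA1 was the most abundant of the 10 transcripts in vehicle-treated cells at 24 h, at 28.7 ± 0.45 CPM per kb (SD, n = 3). PRKAG1 (12.0 ± 0.48), CAMKK2 (11.8 ± 0.21) and STK11 (10.5 ± 0.42) followed in CPM per kb, and the libraries of PRKAG1 and CAMKK2 overlapped. PRKAB2 (5.0), PRKAB1 (4.38), CAMKK1 (4.12), PRKAG2 (3.41) and PRKAA2 (2.32) made a lower tier of mean CPM per kb, in which PRKAB1 and CAMKK1 overlapped. SGK1 was lowest at 0.288 ± 0.053 CPM per kb. This order changed at the top with R1881. At 72 h with R1881, CAMKK2 stood first at 22.0 CPM per kb and PRKAA1 second at 19.4, without overlap between their libraries. At 24 h with R1881 these genes overlapped, at 17.6 for CAMKK2 and 17.8 CPM per kb for PRKAA1.

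**Figure D1:**
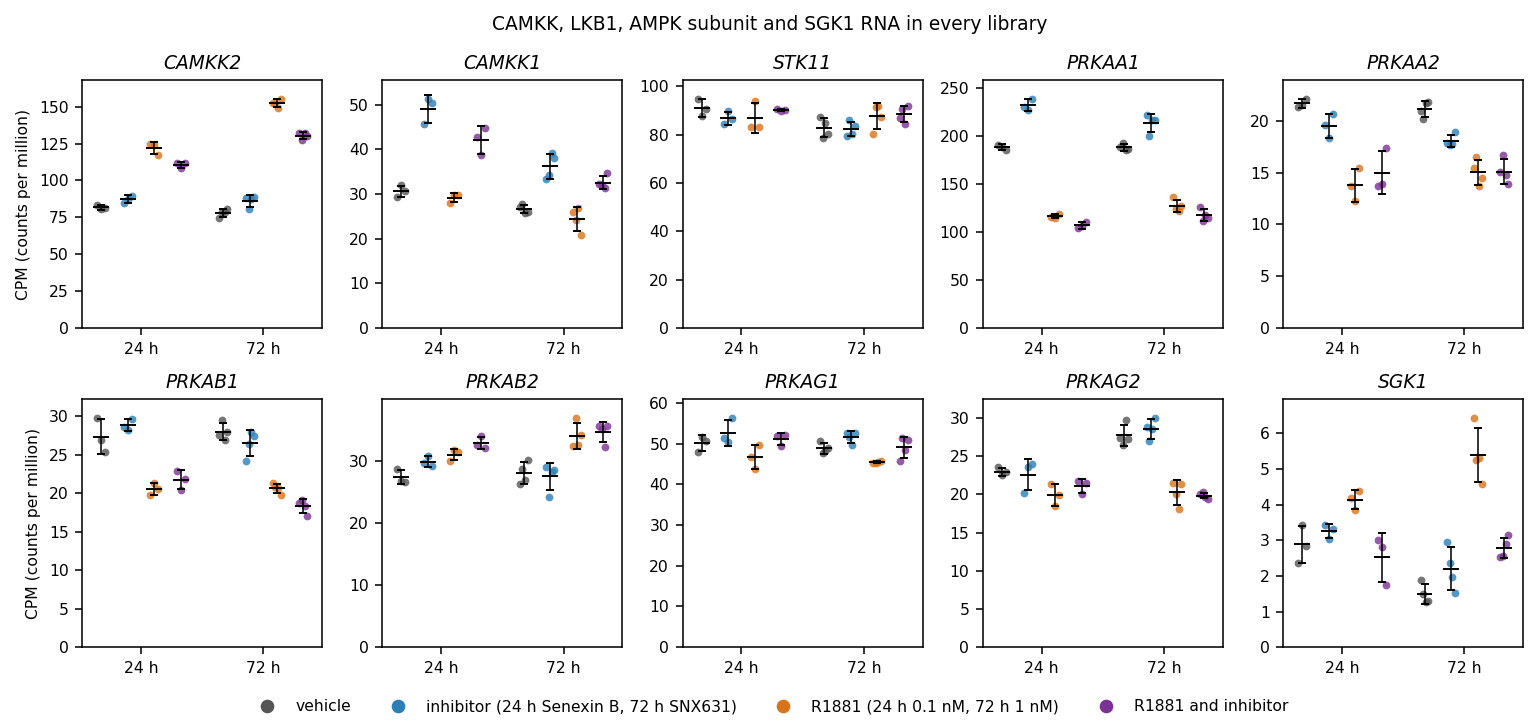
RNA levels of the 10 genes in CPM (vertical axis, from 0) in each of the 28 libraries, by experiment (horizontal axis). Points are libraries, long lines are group means and short lines are 1 SD on either side (n = 3 at 24 h, n = 4 at 72 h). CAMKK2 and PRKAA1 shift in opposite directions with R1881, and CAMKK1 is higher in every inhibitor-treated group than in its matched group.

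CAMKK2 (ENSG00000110931.19, chr12:121237691-121298308, minus strand, GRCh38) encodes the calcium-dependent activator of AMPK. To show DNA just before a start of the genes on which the results turn, bases 250 to 51 before a RefSeq start (GRCh38.p14) are printed for CAMKK2 at chr12:121296760-121296959, for CAMKK1 at chr17:3893104-3893303 and for SGK1 at chr6:134174917-134175116, each 5′ to 3′ on the minus strand. All 3 windows lie within the gene spans of GENCODE 29 given here, which begin farther upstream than these starts. Capitals mark matches to GGGCGG (the GC box, CCGCCC on the other strand).
CAMKK2: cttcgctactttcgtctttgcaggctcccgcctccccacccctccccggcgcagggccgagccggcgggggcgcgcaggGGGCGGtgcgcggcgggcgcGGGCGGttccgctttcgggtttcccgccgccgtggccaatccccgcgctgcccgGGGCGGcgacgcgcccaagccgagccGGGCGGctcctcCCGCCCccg
CAMKK1: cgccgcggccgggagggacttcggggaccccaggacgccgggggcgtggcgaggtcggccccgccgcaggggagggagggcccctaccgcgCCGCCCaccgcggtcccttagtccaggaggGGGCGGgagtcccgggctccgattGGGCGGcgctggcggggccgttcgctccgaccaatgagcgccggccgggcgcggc
SGK1: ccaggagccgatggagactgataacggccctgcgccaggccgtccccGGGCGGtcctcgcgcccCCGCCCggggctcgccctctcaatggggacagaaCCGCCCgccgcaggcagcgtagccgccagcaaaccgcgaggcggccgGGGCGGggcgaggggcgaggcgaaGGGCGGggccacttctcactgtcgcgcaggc
The printed window held 5 GC boxes for CAMKK2, 3 for CAMKK1 and 5 for SGK1. These windows were rich in G and C bases, at 80.5%, 81% and 76.5%, against a median of 57.5% over all windows. SGK1 and CAMKK1 have other RefSeq starts, and those windows (32.5% and 41% G and C for SGK1, 57.5% for CAMKK1) held none. Of all 35115 RefSeq windows of this length, 35% held at least 1. The hexamer AGAACA, known from steroid response elements, was searched on both strands and was in 10.1% of all windows and, among the 17 windows of these 10 genes, in that of PRKAG1 alone. The E-box CACGTG was in 4.51% of all windows and in none of the 17. A match is only a description of these letters, and regions farther from the start were not searched.

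The first question was how androgen alone changed these transcripts. With R1881, CAMKK2 rose in both experiments, PRKAA1, PRKAA2 and PRKAB1 fell in both, and SGK1 rose at 72 h. At 24 h, 5 of the 10 genes passed the test (2 higher, 3 lower) against 48.4% of all genes, and 2 were called, PRKAA1 and PRKAA2, against 19% of all genes. At 72 h, 7 passed (3 higher, 4 lower) against 52.2%, and 2 were called, CAMKK2 and SGK1, against 19.8%. The 2 genes called of 10 are near the share of all genes called. The median log2 fold change of the 10 genes was -0.09 at 24 h and -0.12 at 72 h, and that of all genes tested was -0.02 and -0.01.

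In vehicle-treated cells CAMKK2 RNA was at 83.3, 80.6 and 81.2 CPM at 24 h and at 74.2, 78.4, 78.6 and 80.5 CPM at 72 h. With R1881 it was at 125, 124 and 117 CPM at 24 h and at 152, 152, 149 and 155 CPM at 72 h. All R1881 libraries of CAMKK2 were above all vehicle libraries, and those at 72 h were above those at 24 h. The CAMKK2 rise was 1.49-fold at 24 h (95% interval 1.41 to 1.58; log2 0.58, SE 0.039, FDR 2.85e-14) and 1.94-fold at 72 h (1.85 to 2.04; log2 0.96, SE 0.035, FDR 1.71e-24). The first of these lay just short of the fold limit and was called when replicate 1 of vehicle, replicate 3 of Senexin B, replicate 3 of R1881 or replicate 1 of the combination was left out, with log2 values from 0.568 to 0.615 over all 12 omissions. In a joint fit of all 28 libraries the CAMKK2 effect at 72 h exceeded that at 24 h by 0.38 on the log2 scale (SE 0.050, FDR 1.27e-07). Here 7.54% of all genes passed, as did CAMKK2 and SGK1 of the 10 genes, and 1.88% were called, as was SGK1.

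CAMKK1 (ENSG00000004660.15, chr17:3860315-3894891, minus strand), the paralog of CAMKK2, did not pass the test for R1881 in either experiment. Its log2 fold change was -0.08 at 24 h (SE 0.066, FDR 0.331) and -0.13 at 72 h (SE 0.069, FDR 0.0857), and the 95% intervals of the fold ran from 0.865 to 1.04 and from 0.827 to 1.00. With library totals in place of TMM it passed at 72 h (log2 -0.24, FDR 0.00306). As a description, the ratio of CAMKK2 to CAMKK1 per kb was 2.86 ± 0.17 with vehicle and 4.49 ± 0.28 with R1881 at 24 h, and 3.14 ± 0.18 and 6.74 ± 0.91 at 72 h.

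STK11 (ENSG00000118046.17, chr19:1177558-1228435, plus strand), which encodes LKB1, stayed between 78.7 and 94.9 CPM in all 28 libraries. Its log2 fold change with R1881 was -0.07 at 24 h (SE 0.045, FDR 0.19) and 0.08 at 72 h (SE 0.042, FDR 0.0876), and its groups overlapped. Scaling by library totals alone turned the sign at 72 h, to -0.02, and gave -0.15 at 24 h (FDR 0.00524). That scaling moved the median gene to -0.09 at 24 h and -0.12 at 72 h.

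The catalytic subunits fell together. PRKAA1 (ENSG00000132356.12, chr5:40759379-40798374, minus strand), which encodes α1, was at 191, 189 and 185 CPM with vehicle at 24 h and at 116, 115 and 119 CPM with R1881. At 72 h it was at 188, 193, 185 and 186 CPM with vehicle and at 136, 124, 122 and 128 CPM with R1881. No R1881 library of PRKAA1 reached a vehicle library. The level was 1.62-fold lower at 24 h (log2 -0.69, SE 0.036, FDR 3.29e-17) and 1.49-fold lower at 72 h (log2 -0.57, SE 0.037, FDR 1.33e-16). At 24 h the fall was past the fold limit, with log2 values from -0.705 to -0.671 over the 12 omissions. At 72 h it lay just short of the limit. Without replicate 1 of R1881, or with library totals only, PRKAA1 was called at 72 h too. In bulk RNA, fewer cells that carry a transcript and less of it per cell cannot be told apart.

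PRKAA2 (ENSG00000162409.12, chr1:56645322-56715335, plus strand), which encodes the α2 isoform, was far scarcer. It was at 21.4, 21.6 and 22.2 CPM with vehicle and at 13.7, 12.2 and 15.4 CPM with R1881 at 24 h. At 72 h it was at 21.0, 20.1, 21.7 and 21.8 CPM with vehicle and at 15.5, 16.5, 13.7 and 14.5 CPM with R1881. The groups did not overlap in either experiment. PRKAA2 was 1.58-fold lower at 24 h (log2 -0.66, SE 0.090, FDR 9.9e-08) and 1.41-fold lower at 72 h (log2 -0.50, SE 0.071, FDR 9.92e-08). Its call at 24 h was lost without replicate 2 of R1881, where the log2 value was the smallest of the 12 omissions, at -0.571. The ratio of PRKAA1 to PRKAA2 per kb was 12.4 ± 0.43 with vehicle and 12.1 ± 1.2 with R1881 at 24 h, and 12.7 ± 0.72 and 12.1 ± 0.95 at 72 h, and the groups overlapped.

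The β subunits moved apart. PRKAB1 (ENSG00000111725.11, chr12:119667753-119681630, plus strand), for β1, fell 1.30-fold at 24 h (log2 -0.38, SE 0.071, FDR 2.36e-05) and 1.36-fold at 72 h (log2 -0.45, SE 0.060, FDR 3.67e-08). It was at 25.4 to 29.8 CPM with vehicle and at 19.8 to 21.3 CPM with R1881 at 24 h, and at 27.0 to 29.5 and 19.8 to 21.3 CPM at 72 h. PRKAB2 (ENSG00000131791.8, chr1:147155106-147172550, minus strand), for β2, rose 1.14-fold at 24 h (log2 0.19, SE 0.059, FDR 0.00628) and 1.21-fold at 72 h (log2 0.28, SE 0.061, FDR 0.000167). It was at 26.6 to 28.6 CPM with vehicle and 29.9 to 31.7 CPM with R1881 at 24 h, and at 26.2 to 30.1 and 32.4 to 36.9 CPM at 72 h. Neither gene overlapped between vehicle and R1881, and neither was called. The rise of PRKAB2 did not pass with library totals only (log2 0.11, FDR 0.0953 at 24 h and log2 0.18, FDR 0.0129 at 72 h), and at 24 h it also failed with DESeq2 (FDR 0.0415), with no filter on low counts (FDR 0.0281) and without replicate 2 or 3 of vehicle or of R1881 (FDR up to 0.0528). The ratio of PRKAB1 to PRKAB2 per kb went from 0.875 ± 0.039 with vehicle to 0.580 ± 0.0071 with R1881 at 24 h and from 0.878 ± 0.046 to 0.533 ± 0.039 at 72 h, and no library of one group lay within the range of the other.

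Of the γ subunits, PRKAG2 (ENSG00000106617.15, chr7:151556111-151877125, minus strand), for γ2, fell at 72 h, from 26.5 to 29.7 CPM with vehicle to 18.0 to 21.5 CPM with R1881 (1.37-fold lower, log2 -0.46, SE 0.062, FDR 4.25e-08). At 24 h its log2 fold change was -0.21 (SE 0.074, FDR 0.0173), and the difference between the experiments did not pass (0.25 lower at 72 h, FDR 0.0738). PRKAG1 (ENSG00000181929.13, chr12:49002274-49018825, minus strand), for γ1, did not pass, at -0.11 in both experiments (SE 0.054, FDR 0.0816 at 24 h and SE 0.044, FDR 0.0303 at 72 h). With library totals only, PRKAG1 passed at both times (-0.19, FDR 0.00386 and -0.21, FDR 8.22e-05), as did PRKAG2 at 24 h (-0.28, FDR 0.00142). Of the exon bases of PRKAG1, 12.7% lie within exons of DDN-AS1 on the other strand, and whether reads were counted by strand is not given in the sources used here. The corresponding shares were 2.19% for PRKAB1, 1.72% for STK11 and 1.25% for PRKAG2, and no such bases were found for the other 6 genes. The γ3 gene PRKAG3 had at most 1 count per library and was not tested.

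SGK1 (ENSG00000118515.12, chr6:134169246-134318112, minus strand) was scarce, with 15 to 99 counts per library. At 24 h it was at 2.37, 3.43 and 2.85 CPM with vehicle and at 4.18, 3.84 and 4.38 CPM with R1881. At 72 h it was at 1.89, 1.50, 1.27 and 1.31 CPM with vehicle and at 6.43, 5.24, 5.31 and 4.59 CPM with R1881. R1881 libraries were above vehicle libraries in both experiments. The difference did not pass at 24 h (log2 0.51, SE 0.18, FDR 0.0148) and was 3.57-fold at 72 h (95% interval 2.72 to 4.68; log2 1.84, SE 0.19, FDR 2.08e-11). The excess at 72 h over 24 h was 1.33 on the log2 scale (SE 0.26, FDR 0.00014). At 24 h SGK1 was called without replicate 2 of vehicle (log2 0.61, FDR 0.00748) and passed the test without replicate 3 of the combination (log2 0.51, FDR 0.00916).

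**Figure D2:**
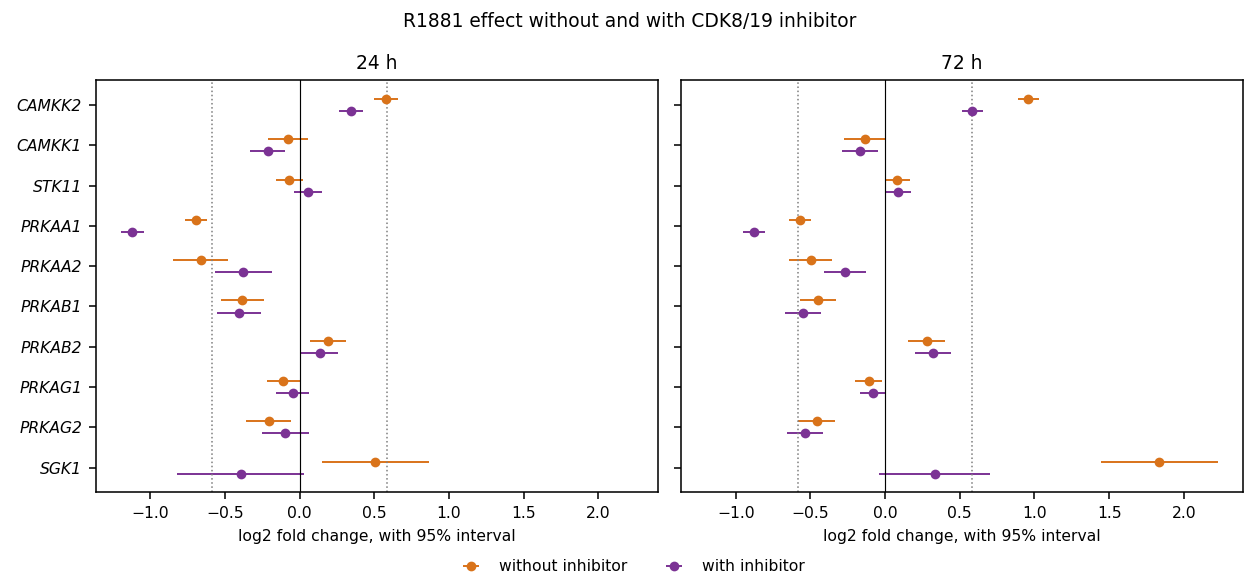
Log2 fold change of R1881 against its matched group (horizontal axis) for the 10 genes (vertical axis) at 24 h (left) and 72 h (right), without inhibitor (orange) and with Senexin B or SNX631 (purple). Bars are 95% intervals and dotted lines mark a fold of 1.5. PRKAA1 lies farther below 0 with inhibitor than without, and CAMKK2 and SGK1 lie closer to 0 or cross it.

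The next question was what CDK8/19 inhibition did without androgen. CAMKK1 was the gene of this group that rose most with Senexin B, and it also rose with SNX631. At 24 h, 2 of the 10 genes passed the test, CAMKK1 and PRKAA1, both higher, against 25.1% of all genes, and CAMKK1 was called, against 3.79%. At 72 h, 4 passed, with CAMKK1, CAMKK2 and PRKAA1 higher and PRKAA2 lower, against 26.9%, and none was called by edgeR or DESeq2, against 4.77%, while 5 had an unadjusted p under 0.05. The largest of the 4 log2 fold changes at 72 h was 0.44, below the fold limit.

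CAMKK1 was at 29.3, 31.9 and 30.6 CPM with vehicle and at 45.6, 51.3 and 50.3 CPM with Senexin B. At 72 h it was at 27.0, 27.8, 25.9 and 25.9 CPM with vehicle and at 33.4, 34.2, 39.3 and 38.0 CPM with SNX631. In both experiments the inhibitor libraries of CAMKK1 were all above the vehicle libraries. The rise was 1.59-fold with Senexin B (95% interval 1.47 to 1.73; log2 0.67, SE 0.058, FDR 6.45e-11) and 1.35-fold with SNX631 (1.24 to 1.48; log2 0.44, SE 0.062, FDR 3.95e-07). With R1881 present it was 1.45-fold (log2 0.53, SE 0.067, FDR 1.63e-07) and 1.32-fold (log2 0.40, SE 0.065, FDR 2.8e-06), as CAMKK1 went from 27.9, 29.8 and 29.7 CPM to 42.8, 38.7 and 44.9 CPM at 24 h and from 25.9, 24.2, 26.9 and 20.8 CPM to 32.2, 32.1, 31.2 and 34.6 CPM at 72 h. Again no libraries overlapped. The inhibitor effect on CAMKK1 did not differ detectably with androgen, since the interaction was -0.14 at 24 h (95% interval of the fold 0.802 to 1.03, FDR 0.466) and -0.03 at 72 h (0.861 to 1.11, FDR 0.874). The inhibitors were given at different doses and times, so their values stand side by side without a comparison.

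PRKAA1 without androgen went from 191, 189 and 185 CPM with vehicle to 231, 228 and 239 CPM with Senexin B. With SNX631 it went from 188, 193, 185 and 186 CPM to 222, 199.8, 217 and 217 CPM. No libraries overlapped, and PRKAA1 rose 1.23-fold (log2 0.30, SE 0.033, FDR 1.18e-08) and 1.13-fold (log2 0.18, SE 0.034, FDR 5.2e-05). CAMKK2 was at 84.4, 87.4 and 89.7 CPM with Senexin B and did not pass (log2 0.09, SE 0.040, FDR 0.073). It was at 88.3, 80.4, 87.2 and 88.6 CPM with SNX631, against a highest vehicle library of 80.5 CPM, and rose 1.10-fold (log2 0.14, SE 0.037, FDR 0.00286). The ranges of CAMKK2 in these groups touched at replicate 2 of SNX631. The rise was lost with library totals only (FDR 0.0167) and without replicate 1 of vehicle or replicate 1, 3 or 4 of SNX631 (FDR up to 0.0237). PRKAA2 went from 20.1 to 21.8 CPM with vehicle to 17.7 to 18.9 CPM with SNX631 (log2 -0.23, SE 0.066, FDR 0.0047), a fall that was lost with DESeq2 (FDR 0.0219), with no filter on low counts (FDR 0.0124) and without replicate 3 or 4 of vehicle or replicate 1, 2 or 3 of SNX631 (FDR up to 0.0183).

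With R1881 present CAMKK2 and SGK1 fell with both inhibitors. PRKAA1 was lower by similar amounts with each, at log2 -0.12 with Senexin B and -0.13 with SNX631, and only the latter passed. At 24 h, 3 of the 10 genes passed the test for Senexin B with R1881, CAMKK1 higher and CAMKK2 and SGK1 lower, against 22.7% of all genes, and SGK1 was called, against 3.12%. At 72 h, 4 passed for SNX631 with R1881, CAMKK1 higher and CAMKK2, PRKAA1 and SGK1 lower, against 33.1%, and SGK1 was called, against 4.12%.

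CAMKK2 was at 112, 108 and 112 CPM with R1881 and Senexin B, below the 125, 124 and 117 CPM of R1881 alone. At 72 h it was at 132, 127, 132 and 130.1 CPM with R1881 and SNX631, below the 152, 152, 149 and 155 CPM of R1881 alone. In both experiments these groups did not overlap and both stayed above the androgen-free groups. The fall of CAMKK2 was 1.10-fold with Senexin B (log2 -0.14, SE 0.040, FDR 0.00626) and 1.18-fold with SNX631 (log2 -0.24, SE 0.031, FDR 8.5e-08). The first was lost with DESeq2 (FDR 0.0165) and without replicate 1 or 2 of R1881 or replicate 2 or 3 of the combination (FDR up to 0.0319).

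The interaction asks whether the inhibitor effect differed with and without R1881. For CAMKK2 it was -0.37 at 72 h on the log2 scale (SE 0.048, FDR 4.18e-07) and -0.23 at 24 h, where it did not pass (SE 0.057, FDR 0.0117). At 24 h it did pass with DESeq2 size factors (FDR 0.0095), a filter of 1 CPM (FDR 0.00632), all 28 libraries in the fit (FDR 0.00451) and without replicate 2 or 3 of R1881 (FDR down to 0.00408). Of the 10 genes, 1 passed the interaction test at 24 h, PRKAA1, against 2.09% of all genes, and 3 passed at 72 h, CAMKK2, PRKAA1 and SGK1, against 7.09%. None was called at 24 h by edgeR or DESeq2 (4 had an unadjusted p under 0.05), against 0.577%, and SGK1 was called at 72 h, against 1.19%. All interactions that passed were negative.

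PRKAA1 with R1881 was at 116, 115 and 119 CPM without and at 104, 106 and 111 CPM with Senexin B. At 72 h it was at 136, 124, 122 and 128 CPM without and at 126, 112, 117 and 115 CPM with SNX631, and at 72 h these groups overlapped. The inhibitor effect was -0.12 on the log2 scale in 24 h cells (SE 0.040, FDR 0.0164) and -0.13 in 72 h cells (SE 0.038, FDR 0.00592). The former passed with library totals only (FDR 0.00253), a filter of 1 CPM (FDR 0.00885) and without replicate 2 of Senexin B or of R1881 (FDR down to 0.00986). The latter was lost without replicate 1 or 4 of R1881 or replicate 2, 3 or 4 of the combination (FDR up to 0.0434). The interaction of PRKAA1 was -0.43 at 24 h (SE 0.052, FDR 1.12e-06) and -0.31 at 72 h (SE 0.051, FDR 3.39e-05), and it passed in every alternative except the test against a fold of 1.5. Under inhibitor, R1881 thus lowered PRKAA1 2.17-fold at 24 h (log2 -1.12, SE 0.037, FDR 1.02e-22) and 1.84-fold at 72 h (log2 -0.88, SE 0.035, FDR 6.84e-23).

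SGK1 with R1881 was at 4.18, 3.84 and 4.38 CPM without and at 3.01, 2.81 and 1.74 CPM with Senexin B. At 72 h it was at 6.43, 5.24, 5.31 and 4.59 CPM without and at 2.54, 2.57, 2.89 and 3.14 CPM with SNX631. The inhibitor libraries were all lower. The fall of SGK1 was 1.66-fold with Senexin B (log2 -0.73, SE 0.21, FDR 0.00523) and 1.93-fold with SNX631 (log2 -0.95, SE 0.15, FDR 2.71e-06). The first was lost with DESeq2 (FDR 0.0196) and without replicate 1 or 3 of R1881 or replicate 3 of the combination (log2 as small as -0.506, FDR up to 0.0687), which held the lowest value, 1.74 CPM. The interaction was -1.50 at 72 h (SE 0.27, FDR 7.23e-05) and -0.90 at 24 h (SE 0.27, FDR 0.052), where it did not pass. At 72 h DESeq2 gave SGK1 no adjusted p, so the call could not be made with it, and the call was lost in the test against a fold of 1.5. Without R1881, SGK1 was at 3.43, 3.03 and 3.32 CPM with Senexin B (log2 0.17, FDR 0.505) and at 2.94, 2.36, 1.98 and 1.51 CPM with SNX631 (log2 0.55, FDR 0.0399), and neither passed.

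**Figure D3:**
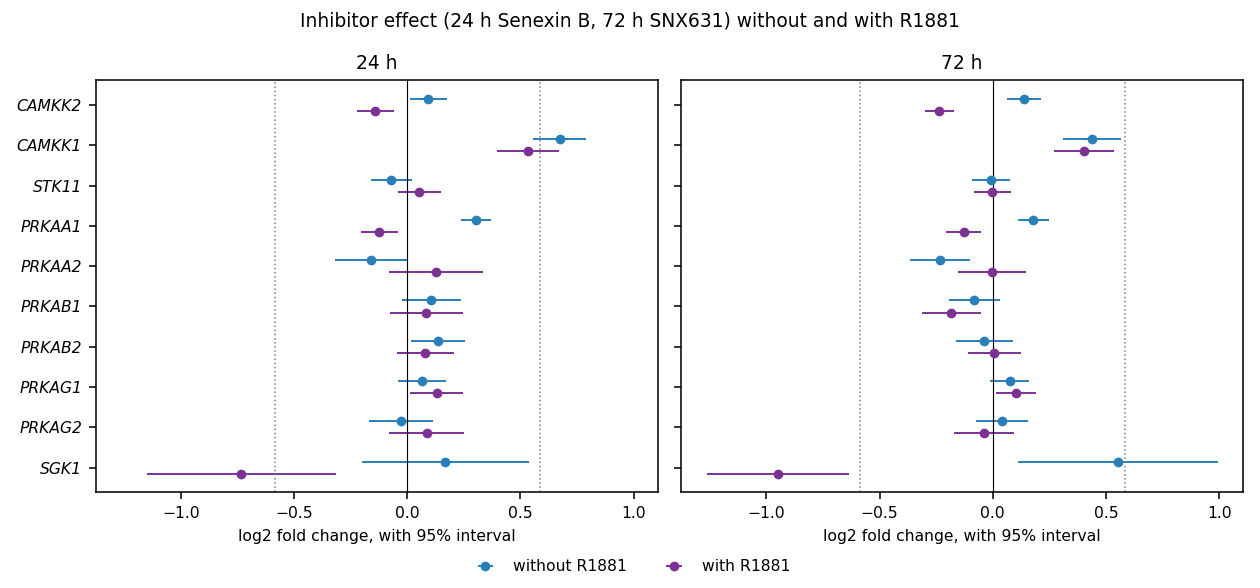
Log2 fold change of inhibitor against its matched group (horizontal axis) for the 10 genes (vertical axis), Senexin B at 24 h (left) and SNX631 at 72 h (right), without R1881 (blue) and with it (purple). Bars are 95% intervals and dotted lines mark a fold of 1.5. CAMKK1 is above 0 in all 4 contrasts, while CAMKK2, PRKAA1 and SGK1 have estimates above 0 without R1881 and below 0 with it.

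With inhibitor present, R1881 changed 5 of the 10 genes past the test at 24 h (1 higher, 4 lower) against 47.5% of all genes, and PRKAA1 was called, against 18.9%. At 72 h, 6 passed (2 higher, 4 lower) against 57.3%, and PRKAA1 was called, against 22%. CAMKK2 rose 1.27-fold with Senexin B (log2 0.34, SE 0.041, FDR 1.13e-08) and 1.50-fold with SNX631 (log2 0.585, SE 0.034, FDR 5.32e-18), the latter a fold so near the limit that CAMKK2 was called in 4 of the 8 alternatives that kept all libraries and in 9 of 16 omissions. SGK1 did not pass in either (log2 -0.39, FDR 0.105 and log2 0.33, FDR 0.106). PRKAA2 fell 1.30-fold with Senexin B (FDR 0.000799) and 1.21-fold with SNX631 (FDR 0.000865). PRKAB1 fell 1.32-fold (FDR 1.39e-05) and 1.46-fold (FDR 2.57e-10), and PRKAG2 did so at 72 h (1.45-fold, FDR 3.7e-10). PRKAB2 rose 1.25-fold at 72 h (FDR 1.14e-05). CAMKK1 fell 1.16-fold at 24 h (log2 -0.21, SE 0.059, FDR 0.0024), a result lost without replicate 2 or 3 of Senexin B or replicate 2 of the combination (FDR up to 0.0301), and with SNX631 its log2 value was -0.17 (FDR 0.0113).

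The wider pathway was read through 6 lists that hold 61 genes, of which 56 were tested. CAMK1G, CAMK4, LIPE, PPARGC1A and PRKAG3 had at most 8 counts in any library. With R1881 at 24 h, 9 of the 56 genes were called higher and 7 lower, or 28.6% against 19% of all genes. At 72 h, 11 were called higher and 8 lower, or 33.9% against 19.8%. The lists were chosen with earlier results of these data known, so these shares are a description and no test of the lists. In both experiments 14 genes were called in the same direction, 8 higher and 6 lower. The matching share of all genes is not given here.

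Upstream of AMPK, CAB39L, which encodes a relative of the MO25 scaffold of the LKB1 complex, was the 1 of 6 LKB1 partners and TAK1 genes called, at log2 1.07 at both times, from 44.7 to 94.5 CPM at 24 h and from 38.6 to 81.3 CPM at 72 h. Of 6 tested calmodulin and CaMK genes, CAMK1D, a CaM kinase that CaMKK activates, was called lower, by -2.16 (SE 0.10) at 24 h and -1.82 (SE 0.093) at 72 h. Its mean level was 29.2 CPM with vehicle and 6.52 CPM with R1881 at 24 h, and 26.2 and 7.47 CPM at 72 h. The calmodulin genes were not called. In each of these lists, 1 of 6 is near the share of all genes called, 19% at 24 h and 19.8% at 72 h.

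The AMPK-related kinases, which LKB1 also activates, were lower as far as they were called. Of 12 genes, 5 were called lower and none higher at each time, against 19% of all genes called at 24 h and 19.8% at 72 h. At any fold, 7 passed the test lower and none higher at 24 h, and 8 lower and 1 higher at 72 h. Of all genes, 48.4% at 24 h and 52.2% at 72 h passed in either direction. The median log2 fold change was -0.48 at 24 h and -0.33 at 72 h against -0.02 and -0.01 for all genes. SNRK went from 101 to 40.7 CPM at 24 h and from 85.8 to 39.3 CPM at 72 h (log2 -1.31 and -1.13), though 18.7% of its exon bases are shared with SNRK-AS1 on the other strand. BRSK1 (-1.07 and -1.27), NUAK1 (-0.84 and -0.64) and MARK1 (-0.67 and -0.73) also had negative log2 fold changes and were called in both experiments. BRSK2 was called at 24 h and NUAK2 at 72 h. Apart from SNRK, these called kinases were scarce. With R1881 at 24 h the means were 2.63 CPM for BRSK1 (22 to 37 counts), 4.94 for NUAK1 (37 to 69), 6.69 for MARK1 (73 to 77) and 4.18 for BRSK2 (40 to 59). With R1881 at 72 h the mean of NUAK2 was 3.37 CPM (31 to 46 counts).

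Among 14 tested AMPK substrates, 4 were called higher at 24 h and 5 at 72 h, and none lower. Of all genes, 19% and 19.8% were called in either direction. At any fold, 9 substrates passed the test higher and 1 lower at 24 h, and 9 higher and 2 lower at 72 h. The share of all genes that passed in either direction was 48.4% at 24 h and 52.2% at 72 h. ACACA, which encodes the acetyl-CoA carboxylase of fatty acid synthesis, went from 446 to 889 CPM at 24 h and from 437 to 889 CPM at 72 h (log2 0.99, SE 0.036 and 1.02, SE 0.035). TBC1D1, a Rab GTPase-activating protein of glucose transporter traffic, rose by 1.57 and 1.90 on the log2 scale, and PFKFB2, which makes the activator of glycolysis fructose 2,6-bisphosphate, rose by 1.56 and 1.57. TBC1D4 was called at 72 h alone, at 0.77.

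Of 8 tested AMPK partners and regulators, SESN3, a sestrin that acts on AMPK and mTORC1, fell from 817 to 340 CPM at 24 h and from 710 to 286 CPM at 72 h (log2 -1.27, SE 0.055 and -1.32, SE 0.030). SESN1 was called lower (-0.69) and FNIP2 higher (0.60) at 72 h alone. Of these 8 genes, 0 were called higher and 1 lower at 24 h, against 19% of all genes. At 72 h, 1 was called higher and 2 lower, against 19.8%. At any fold, 2 passed the test higher and 4 lower at 24 h, against 48.4% of all genes. At 72 h, 3 passed higher and 5 lower, against 52.2%. Around SGK1, 4 of 10 genes were called higher at each time and none lower, against 19% and 19.8% of all genes called in either direction. At any fold, 7 passed the test higher and 1 lower at each time, against 48.4% and 52.2% of all genes in either direction. NDRG1, a substrate of SGK1, went from 116 to 600 CPM at 24 h (log2 2.36, SE 0.046) and from 101 to 795 CPM at 72 h (log2 2.97, SE 0.037), and its effect at 72 h exceeded that at 24 h by 0.61 (SE 0.064, FDR 6.84e-10). SGK3 rose by 0.91 and 1.21 and NEDD4L, a ubiquitin ligase that SGK1 phosphorylates, by 1.19 and 1.40. SGK2 was called at 24 h (log2 1.85) and MTOR at 72 h (log2 0.71). The genes called in 1 experiment alone (BRSK2, NUAK2, TBC1D4, SESN1, FNIP2, SGK2 and MTOR) are named because their values were seen, and whether their effects differed between the experiments is not shown by a call in 1 of them.

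**Figure D4:**
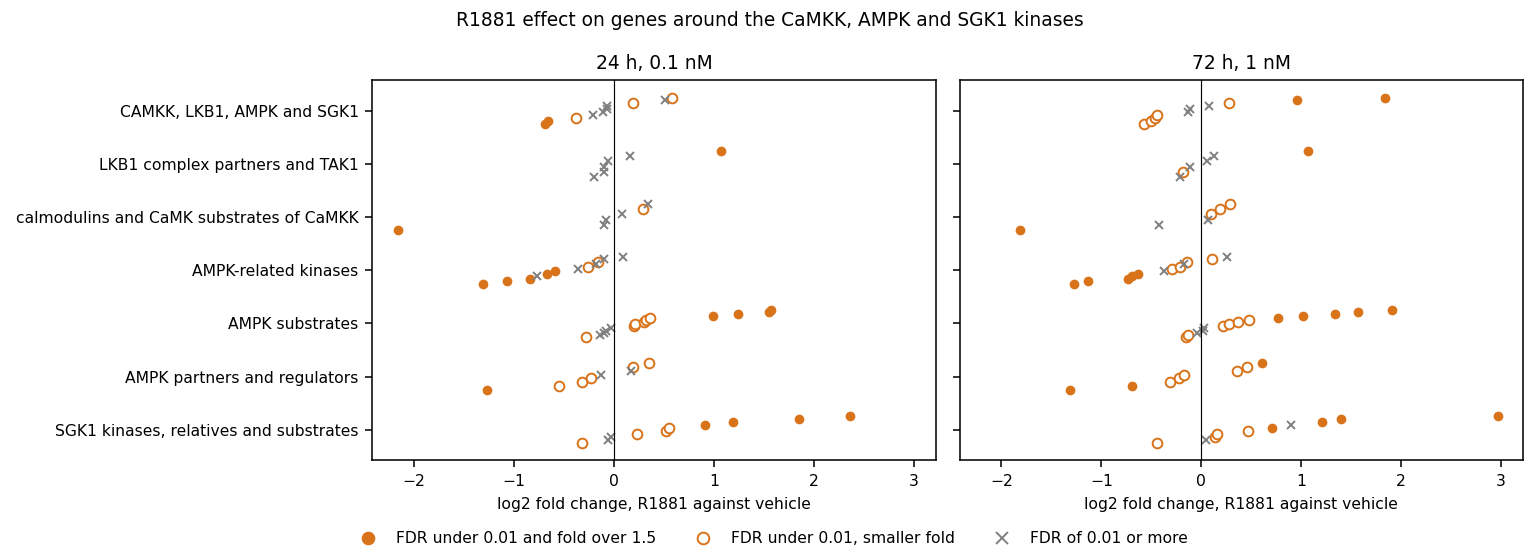
Log2 fold change of R1881 against vehicle (horizontal axis) for the genes tested in the 10-gene group and in 6 lists of related genes (vertical axis), at 24 h (left) and 72 h (right). Filled points are genes with an FDR under 0.01 and a fold over 1.5, open points pass the FDR alone and crosses do not pass. Called AMPK-related kinases lie left of 0 and called AMPK substrates right of 0.

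Few of these genes, and few of all genes, were called with the inhibitors. Without R1881 none of the 56 was called by edgeR with either inhibitor (29 had an unadjusted p under 0.05 with Senexin B and 24 with SNX631), although 18 passed the test at any fold with Senexin B (8 higher, 10 lower) and 14 with SNX631 (6 higher, 8 lower). Of all genes, 25.1% passed and 3.79% were called with Senexin B, and 26.9% passed and 4.77% were called with SNX631. In the presence of R1881, 1.79% of the 56 were called with Senexin B against 3.12% of all genes. With SNX631 the share was 3.57%, near the 4.12% of all genes. With R1881, Senexin B lowered SGK2 (log2 -1.11, SE 0.26, FDR 0.000731), from a mean of 2.81 to 1.30 CPM, on 11.5 to 35.5 counts per library. Of the exon bases of SGK2, 7.04% are shared with Z98752.3 on the same strand, and its counts held fractions in 10 of 28 libraries. SNX631 with R1881 lowered SGK3 (log2 -0.59, SE 0.051, FDR 2.36e-12), from 38.9 to 25.9 CPM, and raised NUAK2 (log2 0.62, SE 0.14, FDR 0.000255), from 3.37 to 5.26 CPM. Of the exon bases of SGK3, 6.04% are shared with C8orf44 on the same strand, and its counts held fractions in 18 of 28 libraries.

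As a description, the genes whose mean log2 CPM followed CAMKK2 most closely over the 8 groups, among 2082 genes with a range over 1 log2 unit, were EPHA7 (Pearson r = 0.99), CYP2U1 (0.987) and SH3D21 (0.984), and the most opposed was ADGRV1 (-0.978). For SGK1 they were FICD (0.796), SLC2A12 (0.776) and MEGF6 (0.767), with LRIG3 lowest (-0.802). The 8 points share the R1881 contrast and the experiments, and no test was made.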

How the data were processed

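RNA sequencing of 28 LNCaP libraries was analysed from the deposited table of expected counts per gene, which the authors made from directional libraries. Per the submitters' processing notes, FastQC, cutadapt 2.8, STAR 2.7.2b, featureCounts and Subread 2.0.3 were used with GRCh38.p13 (GRCm39 is also listed). The annotation release, use of strand and rule for shared reads are not given in the sources used here. Of the deposited counts above 0, 16.9% held fractions, and all were rounded. The 2 added non-human entries were left out.

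Each experiment was fitted with edgeR 4.0.16 in R 4.3.3 (quasi-likelihood, TMM, filterByExpr with a minimum count of 10 and total of 15), and 15948 genes were tested at 24 h and 16074 at 72 h. The difference between experiments came from 1 fit of all 28 libraries (16672 genes). CPM were TMM-scaled over 28 libraries, and length was the union of GENCODE 29 exons. DESeq2 1.42.0 served as an alternative. The genes and lists were chosen with earlier results of these data known. Named were all 10 genes, list genes called in the same direction with R1881 in both experiments or called for an inhibitor, and the 3 genes most like and the 1 least like CAMKK2 and SGK1 (Pearson r of log2 CPM plus 0.5 over 8 group means). Alternatives were scaling, filters, test, fold test, replicate block, 28 libraries in the fit and omission of each library. Figures used matplotlib 3.10.9 in Python 3.11.15. Values of some list and marker genes are not reported here.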

Additional observations from a re-analysis of the deposited data

Results flagged for a closer look

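Among the 40 groups of 4 libraries examined (10 genes at 72 h), 3 held a library whose gap to its nearest neighbour exceeded Dixon's 95% limit, and chance gives about 1 in 20. CAMKK2 was at 80.4 CPM in replicate 2 of SNX631, PRKAB2 was at 24.1 CPM in the same library, and PRKAB2 was at 32.2 CPM in replicate 3 of R1881 with SNX631. Without replicate 2 of SNX631, the SNX631 effect was 0.17 for CAMKK2 (edgeR FDR 0.000319), 0.21 for PRKAA1 and -0.22 for PRKAA2 (edgeR FDR 0.0169, no longer passing) on the log2 scale.

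Effects that differed between conditions by a test of the difference itself were as follows, on the log2 scale. The R1881 effect was larger at 72 h than at 24 h by 0.385 for CAMKK2 and 1.33 for SGK1. The inhibitor effect with R1881 minus that without it was -0.427 for PRKAA1 with Senexin B, and -0.374 for CAMKK2, -0.306 for PRKAA1 and -1.50 for SGK1 with SNX631.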

How the results depend on the processing

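Of the values for the 10 genes and the 16 named list genes under alternatives that kept all libraries, 710 kept their direction and side of the threshold, 13 newly passed, 53 no longer passed (44 of them under the test against a fold of 1.5) and 3 reversed. The reversed values were those of STK11 with library totals only, at -0.02 for R1881 with Senexin B, -0.0204 for R1881 at 72 h and -0.0193 for R1881 with SNX631, where that scaling also moved the median of all genes. The interaction of CAMKK1 at 72 h ran from -0.103 to 0.0188 over the omitted libraries.

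Under the test against a fold of 1.5, the number of the 10 genes called was 1 for R1881 at 24 h and 0 for Senexin B without R1881, for each inhibitor with R1881, for the interaction at 72 h and for the difference between experiments. This test sets a stricter criterion by construction. Of all genes it called 2020 of 15948 for R1881 at 24 h and 134 of 15948 for Senexin B without R1881. With R1881 it called 94 of 15948 for Senexin B and 140 of 16074 for SNX631. It called 24 of 16074 for the interaction at 72 h and 89 of 16672 for the difference between experiments. With the DESeq2 Wald test, 0 of the 10 genes were called for Senexin B with R1881, against 414 of 15948 genes. For the interaction at 72 h, 0 were called, against 158 of 16074, and DESeq2 gave no adjusted p for SGK1 there. With library totals only, 4 were called for R1881 at 72 h (PRKAA1 and PRKAA2 added), against 3420 of 16074 genes. For R1881 with SNX631, 3 were called (PRKAB1 and PRKAG2 added), against 3746 of 16074. For R1881 with SNX631, CAMKK2 was added in 4 settings, which made 2 genes called. Of all genes, DESeq2 size factors called 3526 of 16074 and the DESeq2 Wald test 3324 of 16074. No filter on low counts called 3976 of 32652, and all 28 libraries in the fit 3613 of 16672. When 1 library was left out, the counts among the 10 genes ran from 1 to 3 for R1881 at 24 h. They ran from 0 to 2 for Senexin B with R1881 and from 2 to 3 for R1881 at 72 h. For R1881 with SNX631 the range was 1 to 3. The matching counts of all genes are not given here. CAMKK1 was added for Senexin B with R1881 without replicate 2 of the combination, and PRKAB1 for R1881 with SNX631 without replicate 1 of SNX631. The cause of these changes was not tested.

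Deviations of libraries with the same replicate number correlated between -0.0615 and 0.148 at 24 h (median 0.0264). At 72 h they correlated between -0.046 and 0.0873 (median 0.00554). Between libraries with different numbers the range was -0.14 to 0.0688 at 24 h (median -0.0173). It was -0.101 to 0.148 at 72 h (median -0.000263). These correlations are all small, but they cannot show whether the numbers pair samples. With a replicate block, the counts called were 2, 1, 1, 1 and 0 at 24 h for R1881, R1881 with Senexin B, Senexin B, Senexin B with R1881 and the interaction, and 2, 1, 0, 1 and 1 at 72 h for the same order with SNX631. The block changed none of these counts. Of all genes it called 3022, 3029, 612, 502 and 101 of 15948 at 24 h in that order. At 72 h it called 3173, 3529, 763, 660 and 188 of 16074. The low counts of SGK1 limit its precision.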
